A study of Mus musculus with 6 samples.

Results

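Trp53, the mouse gene of the tumour suppressor p53, and 9 of its well-known target genes were followed in bone marrow-derived macrophages (BMDMs) cultured with or without zoledronic acid (ZA). The genes were chosen by symbol, as p53 itself and textbook targets in growth arrest and stress: Trp53, Cdkn1a, Mdm2, Ccng1, Gdf15, Phlda3, Zmat3, Sesn1, Sesn2 and Trp53inp1. All 10 were found among the 35417 gene rows that could be read of the 35434 deposited, and all 10 passed the filter on low values. The study cultured femoral marrow of C57BL/6 mice with macrophage colony-stimulating factor for 7 days, and RNA was taken 12 h after ZA stimulation. ZA is a nitrogen-containing bisphosphonate that blocks farnesyl diphosphate synthase of the mevalonate pathway. The Ctrl group holds 3 libraries of cells without ZA and the ZA group 3 libraries of cells with it. No genotype, sex or age of the mice and no ZA dose for these libraries was given in the labels, and nothing there says whether the 3 replicates of a group came from separate mice or cultures. The p-values therefore measure the spread between these libraries, which may be technical.

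p53 is a transcription factor that is made all the time and destroyed all the time, because its own target Mdm2 marks it for the proteasome. After DNA damage or other stress the protein is stabilised by modification, with little need for more of its mRNA, and it binds response elements near genes that halt the cell cycle, repair DNA, alter metabolism or kill the cell. The mRNA levels of its targets are therefore a usual readout of its activity, whereas the level of Trp53 mRNA is not. Macrophages that have differentiated in culture divide slowly, and the p21 protein encoded by Cdkn1a is well known in them as a brake on the cell cycle.

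The p53 response element is shown first, as background on the sequence that p53 binds. RefSeq promoter windows of the mouse build GRCm38.p6, each of 300 bases from 250 before to 50 after a start, were matched by symbol for 8 of the 10 genes, in 11 windows. The element consists of a pair of like half-sites of 10 bases with no gap, reads the same on both strands, and was searched with at most 2 mismatches to its consensus. Of the 8 genes with a window, Cdkn1a and Ccng1 held such an element, each with 1 mismatch. Bases outside the windows, and the 2 genes without a window, were not searched, so the other genes may hold elements elsewhere. Among 27025 genes with a window, 0.94% held an element with at most 2 mismatches and 0.107% one with at most 1. The 20 bases of each are given here 5′ to 3′ on the strand of the gene, with the core bases of both half-sites in capitals.
Cdkn1a: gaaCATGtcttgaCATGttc
Ccng1: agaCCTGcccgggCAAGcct
The Cdkn1a element lies at chr17:29090928-29090947 on the plus strand and begins 51 bases before the upstream one of 2 start sites of that gene. The best match in the window of the other start had 5 mismatches, and FPKM per gene does not tell which start was used. The Ccng1 element lies at chr11:40755462-40755481 on the minus strand, with its first base 195 bases before the start. The letters CATGNNNNNNCATG, which read the same on both strands and sit inside the Cdkn1a element, occurred in 0.833% of genes and in none of the other 7 genes with a window. The 250 bases before that upstream start of Cdkn1a, chr17:29090729-29090978, are printed with the element in capitals, to show where it lies in the promoter.
Cdkn1a promoter: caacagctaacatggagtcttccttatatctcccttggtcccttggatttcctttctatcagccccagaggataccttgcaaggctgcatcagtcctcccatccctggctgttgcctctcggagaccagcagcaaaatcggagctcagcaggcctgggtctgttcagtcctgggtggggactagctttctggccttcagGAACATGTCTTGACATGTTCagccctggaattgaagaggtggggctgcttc
A match of letters is a description of the sequence, and these data hold no measurement of p53 binding. Any part of these elements in the levels given below was not tested.

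Expression was deposited as FPKM, fragments per kilobase of gene length and of library size, so that levels can be compared between genes. Each library held between 41230600 and 42155808 fragments. Of 9800 genes with a mean of at least 1 FPKM, 36 (0.367%) had an adjusted p under 0.05 between ZA and Ctrl. All 9 macrophage markers of a fixed list were expressed, and their summed level was 23740 to 27630 FPKM in Ctrl and 24620 to 28120 FPKM in ZA, most of it from Lyz2. Of the 9, 7 had a higher mean in ZA, 3 at an unadjusted p under 0.05 (7.5% of all genes), and 4 had ZA libraries wholly above Ctrl (11.4%). These included Csf1r, at 772 ± 4.93 FPKM in Ctrl and 835 ± 11.9 FPKM in ZA, and Adgre1, at 532 ± 5.93 and 581 ± 13.4 FPKM (SD, n = 3), while 0 passed the adjusted threshold by limma. Markers of neutrophils and their progenitors summed to 35.4 to 50.9 FPKM in Ctrl and 31.5 to 37.1 FPKM in ZA. Among them the defining gene Ly6g was listed at 0 in every library, and all 6 members that could be tested had a lower mean in ZA. The summed levels of B cell markers were at most 3.04 FPKM, those of T cells 0.541 FPKM, of dendritic cells 0.666 FPKM and of red blood cells 2.71 FPKM in any library. Fibroblast markers summed to 17.9 to 32.2 FPKM in Ctrl and 16.04 to 23.0 FPKM in ZA, and osteoclast markers to 49.6 to 56.7 and 48.5 to 52.0 FPKM.

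Cdkn1a had the largest difference between ZA and Ctrl among the 10 genes, a small one that did not pass the adjusted threshold. The level of Cdkn1a was 19.5, 19.9 and 19.8 FPKM in Ctrl replicates 1, 2 and 3, and 23.7, 22.6 and 21.8 FPKM in ZA replicates 1, 2 and 3. Every ZA library lay above every Ctrl library, with a gap of 1.94 FPKM between the lowest ZA and the highest Ctrl value. The mean was 19.7 ± 0.177 FPKM (SD, n = 3) in Ctrl and 22.7 ± 0.927 FPKM (SD, n = 3) in ZA, which is 15.1% higher. On the scale of log2(FPKM + 1) the fold change was 0.19 with a standard error of 0.034 and a 95% confidence interval of 0.11 to 0.27. The limma test gave an unadjusted p of 0.000439 and an adjusted p of 0.0761 over all 9800 genes, against a threshold of 0.05. By the size of its statistic it ranked 56 of 9800. A two-sided exact permutation test of Cdkn1a alone gave p = 0.1, the smallest value that 3 libraries against 3 allow.

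The interval of Cdkn1a ran from 8.28% to 20.7% higher in ZA on this scale. Each library held 1658 to 1988 Cdkn1a fragments, for a counting error of 2.36%, which leaves out the spread between libraries. The 3 Ctrl libraries spread with a coefficient of variation of 0.899% and the 3 ZA libraries with 4.08%. In all 14 alternative analyses Cdkn1a was higher in ZA, with log2 fold changes from 0.16 to 0.22. Only the alternative with voom weights on the recovered fragments brought its adjusted p under 0.05, at 0.0372. In the other alternatives the adjusted p reached up to 0.244.

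**Figure D1:**
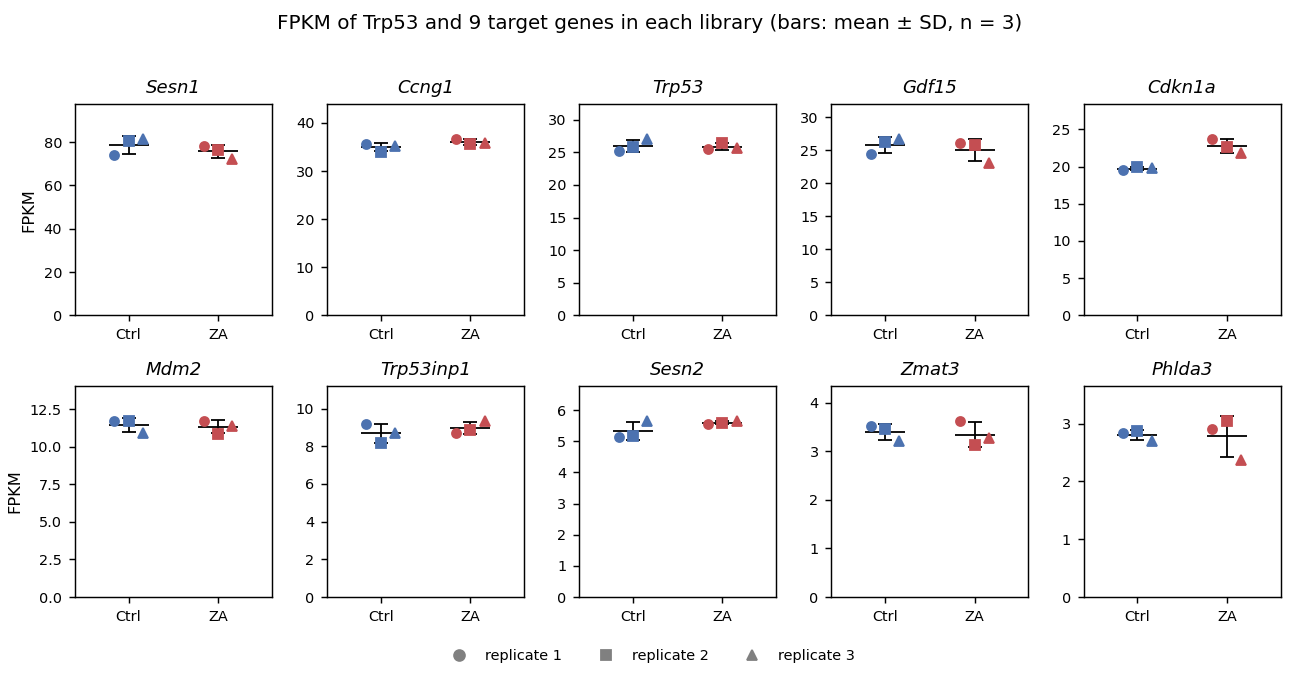
FPKM (vertical axis, from 0) of the 10 genes in the 3 Ctrl (blue) and 3 ZA (red) libraries, in order of mean level; marker shapes give the replicate number and black bars the mean ± SD. Cdkn1a is the gene whose ZA libraries, at 21.8 to 23.7 FPKM, all lie above its Ctrl libraries, at 19.5 to 19.9 FPKM, while the libraries of the other 9 genes overlap.

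The other 9 genes, Trp53 among them, overlapped between the groups. Counted together, 1 of the 10 genes (Cdkn1a) was higher in ZA at an unadjusted p under 0.05, beside 7.5% of all 9800 genes tested, and 0 of 10 were lower, beside 4.85%. By limma's test 0 of 10 passed an adjusted p of 0.05, and with voom weights on the recovered fragments 1 of 10 (Cdkn1a) did, beside 1.35% of all genes in that analysis. Cdkn1a was also the 1 gene of 10 whose ZA libraries all lay above the Ctrl libraries, a pattern that 11.4% of all genes tested showed, and 0 of 10 showed the opposite pattern, beside 6.76%. The means of 4 genes were higher in ZA and those of 6 lower. The median log2 fold change was -0.01 over the 10 genes and 0.01 over all genes tested. Apart from the count with voom, the shares and the median thus lie near those of genes in general. A share over 10 genes is coarse, so this nearness is only rough.

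Trp53 itself showed no detectable difference between the groups. It was measured at 25.2, 25.8 and 27.0 FPKM in the Ctrl replicates and at 25.5, 26.5 and 25.6 FPKM in the ZA replicates. All 3 ZA values lay inside the range of the Ctrl values. Its log2 fold change was -0.007 with a standard error of 0.033 (limma, adjusted p = 0.954), and the confidence interval reached from -5.63% to 4.95% of FPKM + 1. A larger change of Trp53 mRNA than that is outside the interval, but the data say nothing of the p53 protein.

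Mdm2, the ubiquitin ligase that destroys p53 and is itself a p53 target, showed no detectable difference either. It stood at 11.7, 11.7 and 10.9 FPKM in Ctrl and at 11.7, 10.9 and 11.4 FPKM in ZA. The values of the groups interleaved, with a log2 fold change of -0.01 ± 0.041 (standard error) and an interval from -7.26% to 5.74% of FPKM + 1 (limma, adjusted p = 0.92). Mdm4, its partner protein and a fellow inhibitor of p53, was at 6.45 ± 0.202 FPKM in Ctrl and 6.37 ± 0.15 FPKM in ZA (SD, n = 3). Ccng1, which encodes cyclin G1, a regulator that brings a phosphatase to Mdm2, had 35.6, 34.0 and 35.1 FPKM in Ctrl and 36.6, 35.6 and 35.9 FPKM in ZA. Its groups missed separating by 0.0326 FPKM, since ZA replicate 2 lay just under Ctrl replicate 1. The log2 fold change of Ccng1 was 0.04 ± 0.028 (standard error), with the lowest unadjusted p of the 9 genes at 0.145 and an adjusted p of 0.549 by limma.

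The sestrins are stress-inducible proteins that hold back mTORC1 signalling, and they were at very different levels. Sesn1 was the most abundant of the 10 genes, with 74.1, 80.5 and 81.4 FPKM in Ctrl and 78.4, 76.6 and 72.3 FPKM in ZA. The lowest value belonged to ZA replicate 3 and the highest to Ctrl replicate 3, and the groups overlapped. Sesn2 was measured at 5.14, 5.19 and 5.66 FPKM in Ctrl and at 5.55, 5.60 and 5.65 FPKM in ZA. The ZA libraries of Sesn2 were close together, with a coefficient of variation of 0.905%, and lay above Ctrl replicates 1 and 2 but below Ctrl replicate 3. Sesn1 and Sesn2 had log2 fold changes of -0.05 ± 0.043 and 0.06 ± 0.043 (standard error), with adjusted p of 0.658 and 0.594 by limma. The third sestrin, Sesn3, was below the filter at 0.456 ± 0.128 FPKM in Ctrl and 0.481 ± 0.0895 FPKM in ZA (SD, n = 3).

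Of the stress and survival targets, Gdf15, a secreted cytokine of the TGF-β superfamily, had 24.5, 26.3 and 26.7 FPKM in Ctrl and 26.1, 25.8 and 23.1 FPKM in ZA. Its lower ZA mean rested on ZA replicate 3, without which the log2 fold change of -0.05 became 0.007. Trp53inp1, a nuclear protein that assists p53 and takes part in autophagy, had 9.15, 8.19 and 8.69 FPKM in Ctrl and 8.69, 8.87 and 9.35 FPKM in ZA. Zmat3, an RNA-binding zinc finger protein, had 3.52, 3.46 and 3.22 FPKM in Ctrl and 3.63, 3.13 and 3.27 FPKM in ZA. Trp53inp1 had its lowest value in Ctrl and its highest in ZA, Zmat3 had both in ZA, and the groups of both genes overlapped.

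Phlda3, which competes with Akt for membrane lipids, was the lowest of the 10, at 2.85, 2.87 and 2.71 FPKM in Ctrl and 2.91, 3.05 and 2.38 FPKM in ZA. Each Phlda3 value rests on 147 to 186 fragments, a counting error of 7.65%, against 10181 to 11353 fragments and 0.965% for Sesn1. Its log2 fold change turned from -0.02 to 0.06 without ZA replicate 3. Over Trp53, Mdm2, Ccng1, Gdf15, Phlda3, Zmat3, Sesn1, Sesn2 and Trp53inp1, log2 fold changes were at most 0.06 in size and the 95% intervals lay between -0.18 and 0.16, or -11.5% and 11.7% of FPKM + 1, the lower bound being that of Phlda3 and the upper that of Sesn2. The added 1 narrows the interval of a low gene such as Phlda3, whose standard error was 0.0698 on this scale and 0.128 with voom on its fragments. Trp53 and Ccng1 had the narrower of these intervals and Phlda3 the widest.

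**Figure D2:**
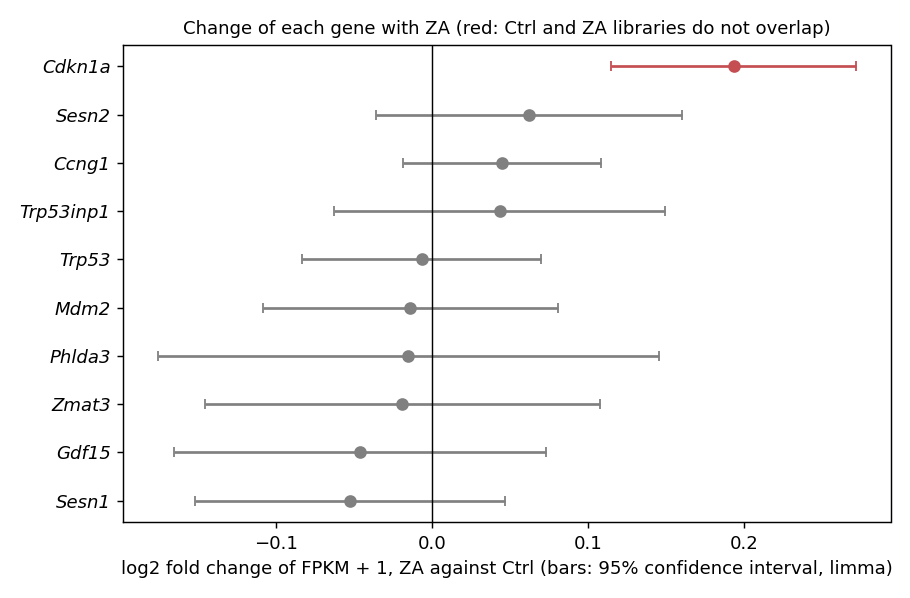
Log2 fold change of FPKM + 1 between ZA and Ctrl (horizontal axis) for the 10 genes; points are limma estimates from 3 libraries a group and bars their 95% confidence intervals. The interval of Cdkn1a, 0.11 to 0.27, lies wholly above 0, and the intervals of the other 9 all include 0.

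By level, the order of the means over the 6 libraries was Sesn1 (77.2 FPKM), Ccng1 (35.5), Trp53 (25.9), Gdf15 (25.4), Cdkn1a (21.2), Mdm2 (11.4), Trp53inp1 (8.82), Sesn2 (5.46), Zmat3 (3.37) and Phlda3 (2.79 FPKM). The ranges of Trp53 and Gdf15 overlapped, as did those of Gdf15 and Cdkn1a. All other neighbours in this order were separated in every library. The range between the lowest and the highest library was 7.27% for Trp53, 21.2% for Cdkn1a and 28.3% for Phlda3.

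Among all genes tested, the pattern over the 6 libraries most like that of Trp53 belonged to Cmss1 (Pearson r = 0.995), Timm21 (0.976) and Exosc9 (0.973). The pattern most like that of Cdkn1a belonged to Ptms (r = 0.991), Sec14l1 (0.989) and Resf1 (0.988). These are descriptions over 6 points, chosen as the highest of 9799 genes compared. An r of 0.95 or more was reached by 14 genes with Trp53 and by 53 genes with Cdkn1a.

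The wider p53 programme, 38 further targets in 4 lists, showed small differences in both directions. Of 27 that could be tested, 4 were higher at an unadjusted p under 0.05 (14.8%, beside 7.5% of all genes) and 3 lower (11.1%, beside 4.85%), and 0 passed the adjusted threshold by limma. The ZA libraries lay wholly above Ctrl for 8 of the 27 (29.6%, beside 11.4%) and wholly below for 2 (7.41%, beside 6.76%). Their median log2 fold change was 0.04, beside 0.01 over all genes tested. Some genes that p53 can also induce, such as Pcna and Atf3, were placed in other lists described below and are not among the 38. Both were lower in ZA without overlap, Pcna at an adjusted p of 0.0453 by limma, so these counts depend on how genes were sorted into lists.

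In growth arrest, 7 of 10 targets could be tested, with 1 higher and 2 lower at an unadjusted p under 0.05 (7.5% and 4.85% of all genes) and a median log2 fold change of 0.002. Btg2, an antiproliferative gene, had 13.98 ± 0.305 FPKM in Ctrl and 15.3 ± 0.554 FPKM in ZA (SD, n = 3). Plk2, a stress-responsive kinase, had 52.8 ± 1.14 and 49.4 ± 0.742 FPKM, and Gadd45a, which acts in growth arrest and DNA repair, had 76.6 ± 0.938 and 66.2 ± 6.80 FPKM. None of the 3 passed the adjusted threshold, with adjusted p of 0.225, 0.205 and 0.236 by limma.

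Among apoptosis targets, 7 of 11 were tested, 1 was higher and 0 were lower at an unadjusted p under 0.05, beside 7.5% and 4.85% of all genes, and the median log2 fold change was 0.06. Bbc3, which encodes the BH3-only protein Puma, had 5.03, 5.47 and 5.21 FPKM in Ctrl and 6.16, 5.84 and 5.76 FPKM in ZA, without overlap. Its log2 fold change was 0.15 ± 0.043 (standard error; limma, unadjusted p = 0.0075 and adjusted p = 0.219). Bax, the effector that permeabilises mitochondria, had 102 ± 2.75 and 106 ± 1.65 FPKM (SD, n = 3), with overlapping groups.

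Of the 6 DNA repair and nucleotide supply targets, all tested, 1 was higher and 0 lower at an unadjusted p under 0.05 (7.5% and 4.85% of all genes), with a median log2 fold change of 0.08. The ZA libraries of 4 of the 6 (Rrm2b, Xpc, Polk and Ercc5) lay wholly above Ctrl, beside 11.4% of all genes, and 0 of the 6 passed the adjusted threshold by limma. Rrm2b, the p53-inducible small subunit of ribonucleotide reductase, had 3.30, 3.34 and 3.23 FPKM in Ctrl and 4.14, 3.46 and 3.83 FPKM in ZA (log2 fold change 0.16; limma, adjusted p = 0.304). Xpc, the damage sensor of nucleotide excision repair, had 5.82 ± 0.0669 and 6.18 ± 0.226 FPKM (SD, n = 3), at an adjusted p of 0.477 by limma. Among metabolism and stress targets, 7 of 11 were tested, 1 was higher and 1 lower at an unadjusted p under 0.05 (7.5% and 4.85% of all genes), and the median was -0.01. Dram1, a lysosomal protein of p53-linked autophagy, had 25.8 ± 0.590 and 27.9 ± 1.11 FPKM, and Ddit4, an mTORC1 inhibitor, had 2.69 ± 0.427 and 2.05 ± 0.373 FPKM.

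**Figure D3:**
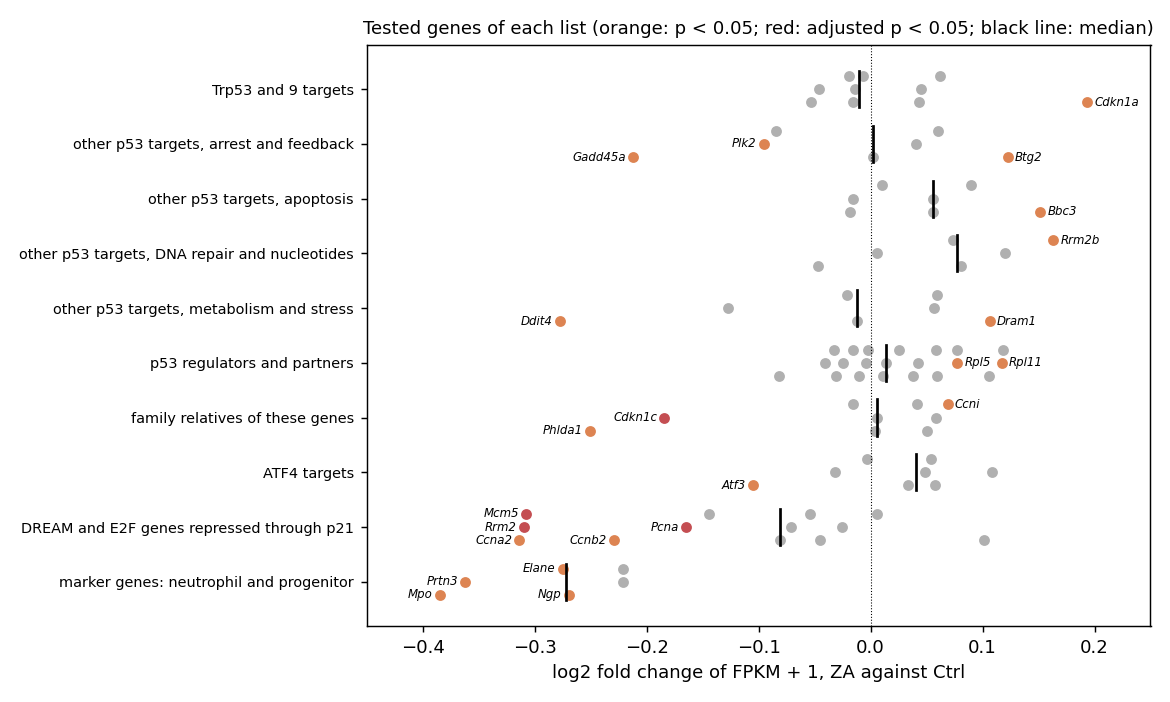
Log2 fold change of FPKM + 1 between ZA and Ctrl (horizontal axis) for every tested gene of each list (rows); orange points have an unadjusted p under 0.05, red points an adjusted p under 0.05 by limma, and the black line is the list's median. Cdkn1a lies farthest right of all, Cdkn1c, Mcm5, Rrm2 and Pcna are the red points and all lie left of 0, and all 6 neutrophil and progenitor markers lie left of 0.

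The regulators and partners of p53 differed little. Of 24 listed, 21 were tested, 2 were higher and 0 lower at an unadjusted p under 0.05, near the 7.5% and 4.85% of all genes, and the median log2 fold change was 0.01. The 2 were ribosomal proteins that bind and inhibit Mdm2 when they are free of ribosomes. Rpl11 had 187, 194 and 192 FPKM in Ctrl and 204, 207 and 210 FPKM in ZA (log2 fold change 0.12; limma, adjusted p = 0.0966), and Rpl5 had 279 ± 7.62 and 295 ± 3.41 FPKM (SD, n = 3; adjusted p = 0.268). Fragments of Rpl11 and Rpl5 can be shared with their processed pseudogenes, so both levels are uncertain. The ZA libraries of 3 of the 21 (Rpl11, Rpl5 and Cop1) lay wholly above Ctrl, beside 11.4% of all genes, and 0 wholly below, beside 6.76%. Cop1, a ubiquitin ligase of p53, had 4.95 ± 0.422 and 5.45 ± 0.108 FPKM (SD, n = 3; limma, adjusted p = 0.441).

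Among 15 relatives of the 10 genes in sequence or name, 9 were tested. At an unadjusted p under 0.05, 1 (Ccni) was higher and 2 lower, beside 7.5% and 4.85% of all genes. By limma 1 of the 9, Cdkn1c, passed an adjusted p of 0.05, beside 0.367% of all genes. The means of 6 were higher in ZA and those of 3 lower, with a median log2 fold change of 0.006. Cdkn1c, which encodes p57, a cell cycle inhibitor of the same family as p21, went the other way from Cdkn1a and fell. Its level was 66.8, 67.2 and 69.1 FPKM in Ctrl and 61.3, 58.5 and 58.6 FPKM in ZA, with no overlap. The log2 fold change was -0.18 ± 0.028 (standard error), with an adjusted p of 0.0487 by limma, just inside the threshold, and 6 of 14 alternatives kept it under 0.05. Cdkn1b, which encodes the third member p27, had 15.9 ± 0.838 and 16.6 ± 0.237 FPKM (SD, n = 3). The p53 paralogs Trp63 and Trp73 were at or near 0, with at most 1 fragment in any library. Phlda1 had 1.45 ± 0.222 FPKM in Ctrl and 1.06 ± 0.166 FPKM in ZA (SD, n = 3; limma, unadjusted p = 0.0187).

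The genes that p21 is known to hold down, through the DREAM repressor complex and E2F factors, are cell cycle genes, and several of them fell. Of 16 listed, 13 were tested. At an unadjusted p under 0.05, 0 were higher and 5 lower, beside 7.5% and 4.85% of all genes. At an adjusted p under 0.05, 3 were lower, beside 0.367% of all genes. The list was chosen with earlier results of these data known, so these shares describe it and are no test of it. The median log2 fold change was -0.08, with a lower mean in ZA for 11 of the 13 and a higher one for 2. Pcna, the sliding clamp of DNA replication and also a p53 target, had 177, 178 and 180 FPKM in Ctrl and 162, 158 and 157 FPKM in ZA (log2 fold change -0.16 ± 0.022, standard error; limma, adjusted p = 0.0453). Mcm5, part of the replicative helicase, had 6.01 ± 0.234 and 4.67 ± 0.217 FPKM (SD, n = 3; limma, adjusted p = 0.0487). Rrm2, the cycling counterpart of Rrm2b in ribonucleotide reductase, had 4.10 ± 0.187 and 3.12 ± 0.136 FPKM (SD, n = 3; limma, adjusted p = 0.0487).

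Rrm2 and Rrm2b thus stood on opposite sides, Rrm2 with 4.23, 4.19 and 3.89 FPKM in Ctrl and 3.27, 3.01 and 3.07 FPKM in ZA. The remaining 2 genes that were lower at an unadjusted p under 0.05 were the cyclins Ccna2 and Ccnb2, and the other 8 tested did not pass that test. The adjusted p stayed under 0.05 in 6 of 14 alternatives for Pcna, 6 of 14 for Mcm5 and 5 of 13 for Rrm2, which were lower in ZA in every one. Leaving out any 1 library but ZA replicate 1 took Pcna and Cdkn1c over the threshold, with an adjusted p of 0.105 to 0.2 by limma, and leaving out any 1 of the 6 took Mcm5 and Rrm2 over it, at 0.0518 to 0.2. Of the markers of neutrophils and progenitors, 4 of 6 tested were also lower at an unadjusted p under 0.05, beside 4.85% of all genes. Among these were Mpo at 2.51 ± 0.196 and 1.70 ± 0.289 FPKM and Prtn3 at 2.25 ± 0.190 and 1.53 ± 0.140 FPKM (SD, n = 3). By limma 0 of the 6 passed the adjusted threshold. All 3 fibroblast markers tested also had a lower mean in ZA, 1 of them at an unadjusted p under 0.05 (Dcn, 11.9 ± 2.86 and 9.01 ± 0.949 FPKM), and the macrophage markers Csf1r and Adgre1 were on the higher side. The part of these markers in the lower cell cycle genes, or in the level of Cdkn1a, was not tested. Nor was any part of Cdkn1a in the lower cell cycle genes. In bulk RNA, fewer cells of a type and less RNA per cell cannot be told apart.

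**Figure D4:**
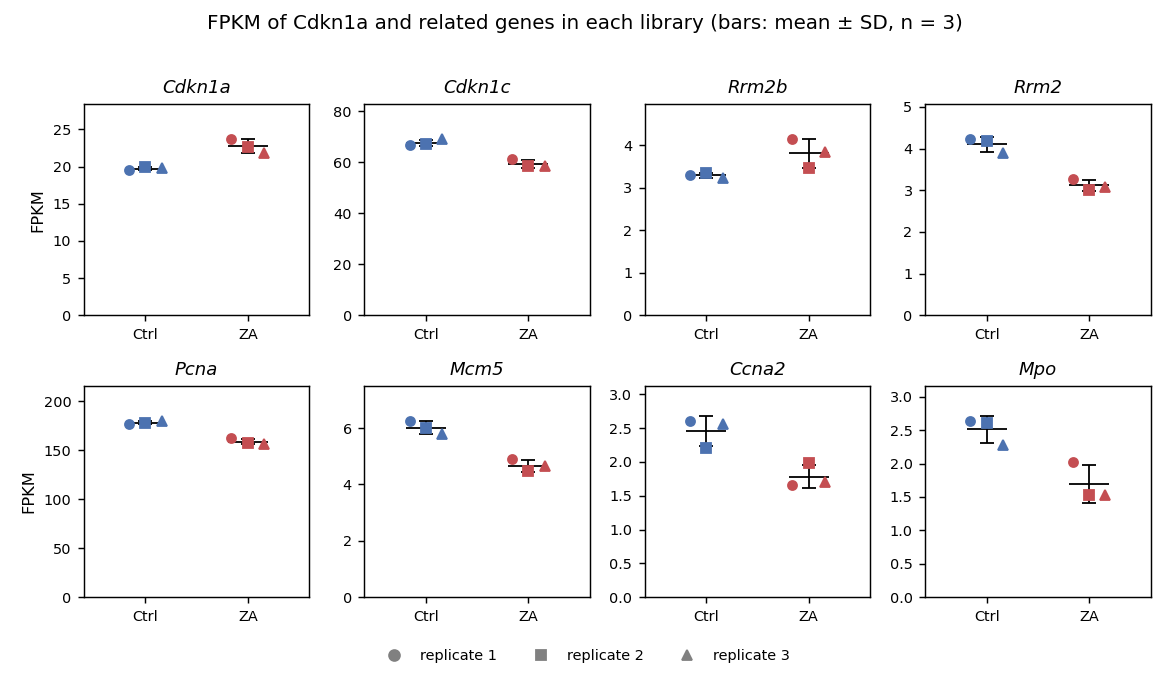
FPKM (vertical axis, from 0) of Cdkn1a, its relative Cdkn1c, the ribonucleotide reductase subunits Rrm2b and Rrm2, the cell cycle genes Pcna, Mcm5 and Ccna2 and the progenitor marker Mpo in 3 Ctrl (blue) and 3 ZA (red) libraries; marker shapes give the replicate number and black bars the mean ± SD. The ZA libraries of Cdkn1a and Rrm2b lie above Ctrl and those of the other 6 genes below, with no overlap in any of the 8. The 8 were picked for display from several lists, in which other genes overlapped. Among all genes tested, 11.4% lay wholly above Ctrl and 6.76% wholly below.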

How the data were processed

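The authors sequenced total RNA of BMDMs as 150-base read pairs and deposited 1 table of FPKM per gene and library. The labels name more than 1 library kit, and the submitters' processing notes name the build mm9. The aligner, counter and use of strand are not given in the sources used here. The deposited table has lost most of its column separators. Rows were cut again by the form of the numbers and by the rule that the FPKM of a gene in all 6 libraries must be whole fragments of 1 length: 21088 rows had a single possible cut, 14318 were cut by whole fragments, 11 were intact and 17 were left out. In a check on 2000 simulated rows, 1994 were restored exactly, 0 wrongly and 6 left out. The recovered fragments of the restored genes made up 99.7% of each library's total.

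Genes with a mean of at least 1 FPKM were tested on log2(FPKM + 1) with limma 3.58.1 (R 4.3.3) with a trended prior, Benjamini-Hochberg adjustment over 9800 genes and 3 libraries a group. Such fold changes understate those of low genes. The test was checked on simulated data. The simulation drew independent noise at the fitted variances, so it does not cover noise shared between libraries. Libraries of a group differed by more than sampling noise. No batch is given in the labels. Other settings were another pseudocount (0.1), no filter or a mean of at least 5 FPKM, median centring, quantile normalization, no trend, a replicate block, voom on recovered fragments, and leaving out each library. Promoters came from RefSeq (GRCm38.p6), without conversion of coordinates. Named were the 10 genes, in each further list the 2 genes with the largest statistic and any with an adjusted p under 0.05, the 3 genes most like Trp53 and Cdkn1a, and marker genes. Gadd45a, Polk, Ercc5, Ccna2, Ccnb2, Ccni, Cop1, Mdm4, Cdkn1b, Sesn3, Trp63, Trp73, Sco2, Phlda2 and Zmat4 were named outside that rule after their values were seen. The genes and lists were chosen with earlier results of these data known.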

Additional observations from a re-analysis of the deposited data

How the results depend on the processing

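The direction of the 10 genes was kept in 128 of 138 values under an alternative, and the 10 values that turned all came from leaving out a library. Leaving out each library in turn gave log2 fold changes from -0.0287 to 0.0201 for Trp53, from -0.046 to 0.0126 for Mdm2, from -0.0833 to 0.00749 for Gdf15, from -0.0675 to 0.0634 for Phlda3 and from -0.0661 to 0.0162 for Zmat3. Cdkn1a stayed between 0.16 and 0.22, with unadjusted p from 0.000274 to 0.00214 over its 14 alternatives. The number of the 10 genes higher at an unadjusted p under 0.05 was 1 to 2 on leaving out a library, 2 without Ctrl replicate 3 (Sesn2 at 0.099), and the number lower was 0 to 1, 1 without Ctrl replicate 1 (Sesn1 at -0.0954). Their median moved from -0.0105 to 0.0181 with a filter of 5 FPKM, which drops Phlda3 and Zmat3. With voom 1 of the 10 had an adjusted p under 0.05.

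Over all genes, 36 calls at an adjusted p under 0.05 became 132 with voom, 20 with quantile normalization, 1 with no filter, 1 without a trend in the prior, and 0 to 25 on leaving out a library. The count was 0 without ZA replicate 2, 1 without Ctrl replicate 1 or 2, 4 without ZA replicate 3, 6 without Ctrl replicate 3 and 25 without ZA replicate 1. At an unadjusted p under 0.05, 735 genes were higher and 475 lower (60.7% higher), against 508 and 664 (43.3%) with median centring and 574 and 589 (49.4%) with quantile normalization. The cause of these moves was not tested. Deviations of same-numbered Ctrl and ZA libraries correlated by 0.284, 0.0393 and 0.28 for numbers 1, 2 and 3, and each library correlated best with its own number. The labels do not say that the numbers pair the libraries, so the main test left them unpaired and the replicate block was an alternative. With the replicate block, 78 genes passed, Cdkn1a had an adjusted p of 0.0601, and all 3 fibroblast markers tested were lower at an unadjusted p under 0.05. Counts for the further lists moved by at most 3 genes.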

Other observations

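Gdf15 and Sesn2 are also known targets of ATF4, the factor of the integrated stress response. A list of Atf4 itself and further ATF4 targets was therefore set beside them. Of 12 listed, 8 were tested, 0 were higher and 1 lower at an unadjusted p under 0.05, beside 7.5% and 4.85% of all genes tested, and the median log2 fold change was 0.04. Atf4 itself had 69.9 ± 1.93 FPKM in Ctrl and 72.8 ± 0.310 FPKM in ZA (SD, n = 3; limma, adjusted p = 0.424). Atf3, a stress-induced factor of the same family that p53 can also induce, had 202 ± 3.83 FPKM in Ctrl and 188 ± 7.12 FPKM in ZA (SD, n = 3), with no overlap and an adjusted p of 0.236 by limma.

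The p53 target Sco2, an assembly factor of cytochrome c oxidase, was listed at 0 in every library, as were Phlda2 and Zmat4 among the relatives. The counter and its gene models are not given, so a listed 0, as for Ly6g above, does not show that a gene was not expressed.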
